A study of Danio rerio with 8 samples.

Results

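The rising starts described here are 855 of 19000 transcription start regions of the whole zebrafish (Danio rerio) embryo whose capped RNA was at least 2-fold higher at 16 than at 12 hours post-fertilization (hpf) in wild-type (WT) embryos. They were chosen from the WT values alone: log2(RPM + 1) had to be at least 1 higher at 16 hpf in each of the 2 WT library pairs, where RPM is tags per 1000000 tags. The 4 groups, of 2 libraries each, were jam3b-sa37 embryos at 16 hpf, jam3b-sa37 embryos at 12 hpf, WT embryos at 16 hpf and WT embryos at 12 hpf. The sa37 embryos carried an allele of jam3b, which encodes a junctional adhesion molecule. The labels give whole embryo as the tissue of every library. They name no zygosity, number of embryos or clutch, so a p-value measures only the spread between these libraries, which may be technical. Because whole embryos were used, more cells of a type and more RNA per cell cannot be told apart. The WT stage differences chose the regions and are given as a description, without a test, whereas the sa37 libraries entered the choice only through a filter on the mean level. The regions are named by their coordinates as the files give them. The submitters' processing notes name the build danRer10, and no gene name is attached to any region here. The jam3b transcript was therefore not looked up.

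The assay was cap analysis gene expression (CAGE), in which the capped 5′ ends of RNAs are captured and sequenced, so that tags pile up where transcription starts. A start used at a single position gives a narrow cluster of tags. Starts scattered along a promoter give a broad cluster. Narrow clusters are often found at genes switched on in particular tissues, and broad ones at genes that most cells use. Between these stages the zebrafish embryo adds somites along its trunk, its first muscle fibres form, and the brain, eye and blood lineages take shape, so that many genes come on in some cells for the first time. Junctional adhesion molecules of this family are known in zebrafish for the fusion of muscle precursor cells.

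The listed clusters held 10662458 to 23300915 tags per library, as recovered from the steps of the RPM values, and between 905534 and 969860 RPM. Tags outside the listed clusters are not counted in these totals. The first library of every group shares a list of 30353 clusters and the second another of 42082, so replicate number and cluster list cannot be told apart. The first list holds no value between 0 and 0.5 RPM, and a region absent or very low there is listed at 0. Every pair difference was therefore taken within a replicate number. Fits without the replicate number that leave out a sa37 library instead compare a lone library with libraries of both lists. Of the 19000 tested regions, 1588 met the bound in the replicate 1 WT pair and 1174 in the replicate 2 pair. The 855 that met it in both made up 4.5% of those tested, and 1052 met it in a single pair. A further 26 regions met the bound but not the filter of a mean of 1 RPM over the 8 libraries.

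The rising starts were mostly moderate in size. The smaller of a region's pair of WT differences was between 1 and 1.5 in 484 of them (56.6%), between 1.5 and 2 in 217, between 2 and 3 in 112, and 3 or more in 42 (4.91%). The median WT difference was 1.65 in replicate 1 and 1.58 in replicate 2, against 0.053 and 0.056 over all tested regions. The regions together held 16820 and 26409 RPM in the WT libraries at 16 hpf, against 4135 and 7935 RPM at 12 hpf. That was 1.9 and 2.78% of the RPM in tested regions at 16 hpf, and 0.46 and 0.83% at 12 hpf. In sa37 they held 18479 and 28143 RPM at 16 hpf, against 5392 and 9659 RPM at 12 hpf. The set as a whole is thus a small part of the embryo's capped RNA at either stage and in either genotype.

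At the bound, the members nearest to it cannot be set apart from the regions that just missed it. The nearest member inside lay on chr22:71560-71567 on the plus strand, with 36.4 and 59.4 RPM at 16 hpf and 15.6 and 29.2 RPM at 12 hpf in WT. Its WT differences were 1.17 and 1.00. The others just inside, chr24:32635137-32635151 and chr15:38957922-38958034, both on the plus strand, had smaller differences of 1.00 as well. Just outside lay chr2:32370176-32370236 on the minus strand, with 3.00 and 6.14 RPM at 16 hpf and 0.94 and 2.57 RPM at 12 hpf and with differences of 1.04 and 0.9992. The next outside were chr1:51087477-51087549 and chr8:48487980-48488102, both on the plus strand, with smaller differences of 0.9992 and 0.9984.

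Most rising starts were already detected in WT at 12 hpf, and few were off. A region was called off where both 12 hpf libraries were under 0.5 RPM and on where both were at 1 RPM or more. In WT at 12 hpf, 403 rising starts (47.1%) were on, 118 (13.8%) were off and 334 (39.1%) lay between. Over all tested regions 83.2% were on and 1.57% off. The bound favours low 12 hpf values by construction, so these shares were not tested.

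The starts that were on already held a median of 12.8 and 21.3 RPM in WT at 16 hpf, against 2.82 and 5.91 RPM at 12 hpf. Their median ratio of RPM at 16 over 12 hpf was 3.72 in replicate 1 and 3.06 in replicate 2 of WT. In sa37 the median ratios were 3.61 and 2.76, over the 395 and 402 of these 403 regions that were above 0 at 12 hpf. The starts that were off came to low levels: their medians in WT at 16 hpf were 2.36 and 4.04 RPM, and the highest reached 34.4 and 78.2 RPM. Those between held 3.09 and 6.56 RPM at 16 hpf, against 0 and 1.2 RPM at 12 hpf. The off class at 16 hpf was thus no higher, by its medians, than the on class at 12 hpf.

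**Figure D1:**
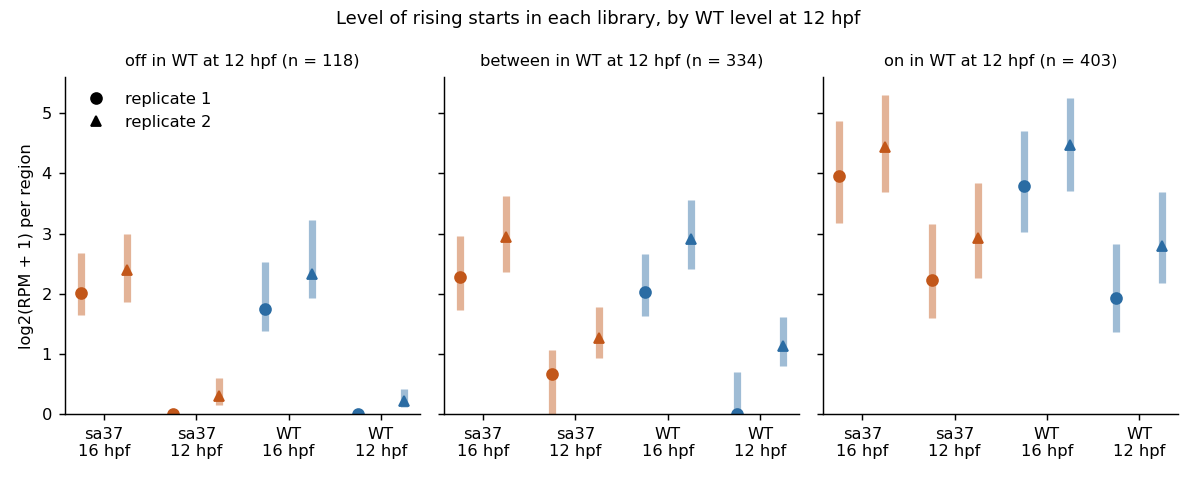
Level of the 855 rising starts in each library as log2(RPM + 1), for the 118 off, 334 between and 403 on in WT at 12 hpf. Points are medians over regions (circles replicate 1, triangles replicate 2) and bars run from the lower to the upper quartile. The 16 hpf medians stand above the 12 hpf medians in both genotypes and all 3 classes, in WT by the choice. The caption's classes were set on WT at 12 hpf, and replicate 2 stands above replicate 1 in every group.

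The sa37 libraries, which entered the choice only through the filter, had most of these starts higher at 16 hpf. In sa37, 651 of the 855 (76.1%) were at least 2-fold higher in both pairs on the log2(RPM + 1) scale, against 5.15% of all tested regions. A further 136 met the bound in a single sa37 pair and 68 in neither, against 1075 and 16947 of the 19000 tested regions. The share depends on the choice: of the 1588 regions chosen in WT replicate 1 alone, 760 (47.9%) met the bound in both sa37 pairs, and of the 1174 chosen in WT replicate 2 alone, 758 (64.6%) did. Both sa37 pairs were higher at 16 hpf in 839 (98.1%), against 47.8% of tested regions. In 755 (88.3%) the lower 16 hpf library stood above the higher 12 hpf library of sa37, against 17.3% of tested regions. The median difference in sa37 was 1.64 in replicate 1 and 1.47 in replicate 2, against 0.169 and 0.086 over all tested regions. Quantile normalization brought the median of all tested regions in sa37 to -0.048, against 0.122 without it, and that of the rising starts to 1.38, against 1.56.

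In limma on log2(RPM + 1), with p-values adjusted by Benjamini-Hochberg over all 19000 regions, 18 of the 855 were called higher at 16 hpf in sa37 at an adjusted p under 0.05, against 0.1% of all tested regions (19 in all). None of the 855 or of the 19000 was called lower (0%), and 0 of the 855 were lower at an unadjusted p under 0.05. The deviations of libraries with equal replicate number went together, and with that number as a block 789 of the 855 (92.3%) were called higher, against 11.5% of all tested regions. Under the block 0 were called lower, against 2.84% of tested regions, and 1 was lower at an unadjusted p under 0.05. Tags recovered from the RPM steps were tested by edgeR as well. Its quasi-likelihood fit with the block called 471 (55.1%) higher and 0 lower, against 4.48% of tested regions higher and 3.4% lower, with 1 lower at an unadjusted p under 0.05. Without the block, edgeR called 0, and 525 had an unadjusted p under 0.05 and were higher. Over all 19000 tested regions 1598 had an unadjusted p under 0.05 in that edgeR fit, in either direction. DESeq2's Wald test called 360 (42.1%) higher, against 2.57% of tested regions. The recovery of tags is less sure in the replicate 1 files, where the smallest listed value is 6 to 9 tags. All these fits took the spread from all 8 libraries. The WT libraries that chose the regions therefore enter the sa37 p-values, which are not independent of the choice. In the sa37 groups alone, limma called 0 of the 855 without the block. With the block it called 806, out of 2415 tested regions called higher. Leaving out any library lowered the 18 to between 0 and 6. Without replicate 1 of sa37 at 12 hpf the block fit called 472 (55.2%), against 3.37% of tested regions, and without replicate 1 of sa37 at 16 hpf it called 330 (38.6%), against 1.97%.

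By class, 112 of the 118 starts that were off in WT (94.9%) were at least 2-fold higher in both sa37 pairs, as were 249 of the 334 between (74.6%) and 290 of the 403 on (72.0%). The block fit called 115, 298 and 376 of them (97.5, 89.2 and 93.3%). Over all tested regions 5.15% were at least 2-fold higher in both sa37 pairs, and the block fit called 11.5% higher. The shares over all tested regions of each class were not counted. Starts that were off in WT are low, and the filter on the mean over the 8 libraries counts sa37 values too. Some passed it only with their sa37 values at 16 hpf. An example is chr11:1996349-1996423 on the plus strand, with 2.31 and 2.57 RPM in sa37 and 1.35 and 1.93 RPM in WT at 16 hpf. The filter thus raises the sa37 share of the off class, and the shares of the classes cannot be set against each other. At 12 hpf, 80 of the 118 (67.8%) were also off in sa37, 37 lay between and 1 was on. Of the 403 on in WT, 380 (94.3%) were on in sa37 at 12 hpf and 3 were off. Of the 334 between in WT, 222 lay between in sa37, 87 were on and 25 were off. Over all tested regions 83.6% were on and 1.24% off in sa37 at 12 hpf. The class of a start at 12 hpf thus mostly held in the other genotype, although the bounds split regions that lie close to them. How often it held over all tested regions of each class was not counted. It therefore cannot be called particular to the rising starts.

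**Figure D2:**
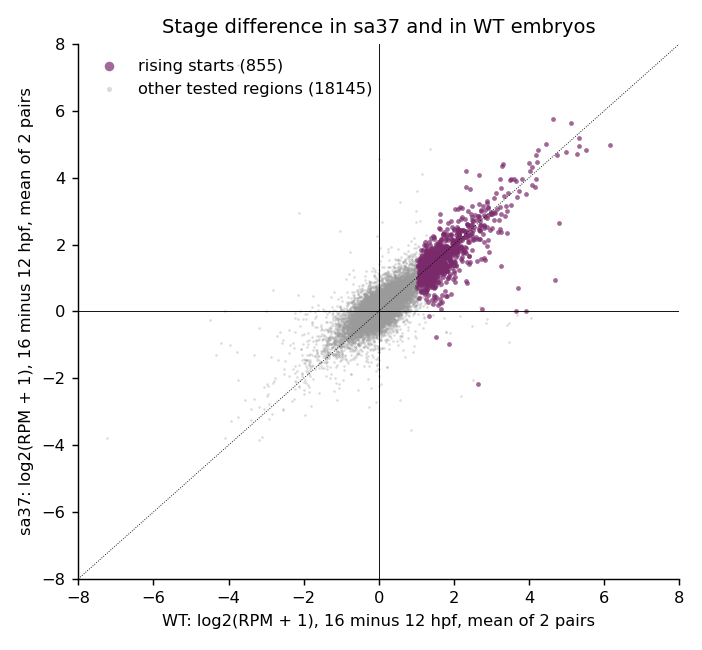
Difference in log2(RPM + 1) between 16 and 12 hpf in sa37 (vertical axis) and in WT (horizontal axis), each the mean of 2 library pairs. Purple points are the 855 rising starts, chosen on the horizontal axis, grey points are the 18145 other tested regions, and the dotted line marks equal differences. All but 5 rising starts lie above 0 on the vertical axis, from libraries that entered the choice only through the filter on the mean level.

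Starts whose smaller WT difference was between 1 and 1.5 had a median of 1.29 in sa37, against 1.37 in WT. In the next steps up the medians were 1.82 in sa37 and 1.90 in WT, then 2.44 in sa37 and 2.63 in WT, and from 3 upward 3.91 in sa37 and 3.96 in WT. Across the 855 regions the mean differences in sa37 and WT had a Pearson's r of 0.76 with each other and a Spearman's rho of 0.69. Over all 19000 tested regions the values were higher, at 0.80 and 0.74, so this relation is not particular to the rising starts. These regions are not independent, and both genotypes' values come from the same 2 cluster lists. As WT chose the regions, its values are raised by the choice, and no test of sa37 against WT was made. A choice made in WT replicate 1 alone took 1588 regions. Read in replicate 2, they had median differences of 1.06 in sa37 and 1.07 in WT. Chosen in WT replicate 2 and read in replicate 1, 1174 regions had medians of 1.47 in sa37 and 1.40 in WT.

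The largest smaller-of-pair difference belonged to a start on chr2:2628871-2628920 on the plus strand. It held 146 and 239 RPM in sa37 at 16 hpf, against 2.48 and 9.05 RPM at 12 hpf. In WT it held 100.01 and 206 RPM at 16 hpf, against 0 and 3.04 RPM at 12 hpf. Both sa37 libraries at 16 hpf stood far above both at 12 hpf, while the choice made the WT pairs higher. At 12 hpf the start was on in sa37, where the replicate 2 value was near that library's median of 9.39 RPM over all tested regions. The sa37 difference was 4.99 (standard error 0.82, adjusted p 0.111 by limma and 0.000972 under the block). Without the block it was also called by DESeq2 (adjusted p 0.000286) and by limma after quantile normalization (adjusted p 0.0209), but not by edgeR (adjusted p 0.225).

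A 3-base start on chr4:43029118-43029121 on the minus strand was off in both genotypes at 12 hpf. It held 41.8 and 27.5 RPM in sa37 at 16 hpf, against 0 and 0.286 RPM at 12 hpf, and in WT 34.4 and 46.0 RPM at 16 hpf, against 0 and 0.043 RPM at 12 hpf. It was called in sa37 with or without the block, with a difference of 4.94 (standard error 0.36, adjusted p 0.0174 by limma and 0.000616 under the block). This was also the joint narrowest member, beside chr3:7041717-7041720 on the minus strand and chr14:14276833-14276836 on the plus strand. Those 2 were far weaker, at 1.79 and 2.24 RPM and at 4.68 and 3.24 RPM in sa37 at 16 hpf.

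The smallest adjusted p in sa37, shared by 3 starts, was 0.0143. The strongest of them at 16 hpf in sa37 was chr6:15123713-15123877 on the plus strand, with 83.0 and 93.3 RPM at 16 hpf, against 0.85 and 0.744 RPM at 12 hpf. In WT it had 39.9 and 51.8 RPM at 16 hpf, against 0 and 0.771 RPM at 12 hpf. Its sa37 difference was 5.63 (standard error 0.38, adjusted p 0.000388 by limma under the block). At 16 hpf both sa37 libraries stood above both WT libraries, which was not tested. The region is named here for its sa37 p, which favours high sa37 values at 16 hpf.

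The second, chr4:16461431-16461887 on the minus strand, is a broad region of 456 bases. It held 58.9 and 70.6 RPM in sa37 at 16 hpf, against 0 and 0.458 RPM at 12 hpf, and 38.3 and 57.3 RPM in WT at 16 hpf, against 1.1 and 0.728 RPM at 12 hpf. The third, chr13:39033844-39033987 on the minus strand, held 25.4 and 27.0 RPM in sa37 at 16 hpf and was listed at 0 in both sa37 libraries at 12 hpf. In WT it held 28.6 and 38.1 RPM at 16 hpf, against 0 and 0.171 RPM at 12 hpf. These 3 starts held at most 1.1 RPM in any library at 12 hpf, while their widths ran from 143 to 456 bases.

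Called without the block as well were chr4:12033039-12033477 on the plus strand, chr7:50547293-50547413 on the plus strand and chr17:27417610-27417797 on the plus strand. The first had 45.3 and 35.8 RPM in sa37 at 16 hpf, against 0.94 and 0.286 RPM at 12 hpf, and a difference of 4.71 (standard error 0.41, adjusted p 0.0322 by limma). The region on chromosome 7 held 17.7 RPM in both sa37 libraries at 16 hpf, against 0 and 0.229 RPM at 12 hpf, a difference of 4.08 (standard error 0.36, adjusted p 0.0322 by limma). The region on chromosome 17 had 35.3 and 56.2 RPM in sa37 at 16 hpf, against 0 and 1.03 RPM at 12 hpf, a difference of 5.00 (standard error 0.54, adjusted p 0.0462 by limma).

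Of the other starts among the 12 with the largest WT differences, 5 were above an adjusted p of 0.05 in limma without the block and below it with the block. They were chr12:20218649-20218672 and chr9:39195537-39195575 on the minus strand, and chr10:6316944-6317065, chr13:24148407-24148618 and chr13:48324289-48324460 on the plus strand. Their sa37 differences were 2.65 (SE 0.30), 5.20 (SE 0.58), 4.68 (SE 0.67), 4.83 (SE 0.81) and 3.95 (SE 0.63), with adjusted p between 0.0518 and 0.118 by limma and between 0.000616 and 0.00228 under the block. The region on chromosome 12 was lower in sa37 than in WT at 16 hpf, with 5.38 and 6.27 RPM in sa37 and 27.2 and 28.8 RPM in WT. At 12 hpf it was off in both, with 0 and 0.172 RPM in sa37 and 0 and 0.086 RPM in WT. That difference between genotypes was not tested, since the WT values chose the region.

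**Figure D3:**
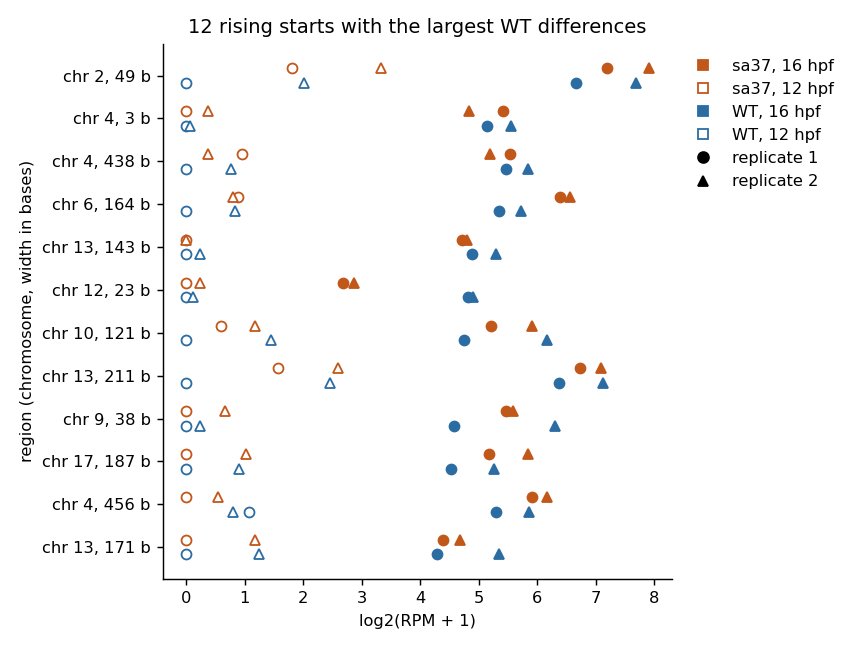
Values of the 12 rising starts with the largest smaller-of-pair WT difference, as log2(RPM + 1) in each of the 8 libraries. Rows give chromosome and width in bases, orange marks are sa37 and blue marks WT, filled at 16 hpf and open at 12 hpf, with circles for replicate 1 and triangles for replicate 2. In every row the filled marks of a genotype lie to the right of its open marks, which the choice favours in WT. The 23-base start on chromosome 12 has its sa37 16 hpf marks well to the left of the WT ones.

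The starts with the highest WT levels were all on at 12 hpf, and their mean WT differences ran from 1.09 to 1.77, against a median of 1.62 over the rising starts. The highest 6 at 16 hpf and the highest 6 at 12 hpf were the same regions, and 3 of them lay on chromosome 12. The first of these, chr12:16827515-16827824 on the plus strand, held 1094 and 1329 RPM in sa37 at 16 hpf, against 509 and 635 RPM at 12 hpf. In WT it held 840 and 917 RPM at 16 hpf, against 324 and 449 RPM at 12 hpf. Its sa37 difference was 1.08 (standard error 0.34, adjusted p 0.473 by limma and 0.00735 under the block).

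Also on chromosome 12, the start chr12:16473320-16473532 on the minus strand held 530 and 805 RPM in sa37 at 16 hpf, against 226 and 502 RPM at 12 hpf. Its difference in sa37 was 0.95 (standard error 0.58, adjusted p 1 by limma and 0.0179 under the block). The strongest outside chromosome 12, chr16:24063913-24064236 on the plus strand, held 584 and 990 RPM in sa37 at 16 hpf, against 178 and 350 RPM at 12 hpf. In WT it held 560 and 1195 RPM at 16 hpf, against 170 and 509 RPM at 12 hpf. In WT the lower library at 16 hpf, from replicate 1, stood little above the higher one at 12 hpf, from replicate 2. The sa37 difference was 1.60 (standard error 0.69, adjusted p 0.795 by limma and 0.00643 under the block). The remaining pair, chr20:12559242-12559599 on the plus strand and chr5:4091589-4091764 on the minus strand, had sa37 differences of 1.63 (SE 0.50) and 0.94 (SE 0.41).

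Few rising starts failed to be higher at 16 hpf in sa37. In 11 of the 855 both sa37 differences were under 0.5, against 13166 of the 19000 tested regions. In 1 both were below 0, against 4634 (24.4%) of the tested regions. The lowest mean belonged to chr22:25438834-25438883 on the minus strand, with 20.0 and 0 RPM in sa37 at 16 hpf, against 3.16 and 101 RPM at 12 hpf. In WT it had 1.71 and 27.3 RPM at 16 hpf, against 0 and 0.985 RPM at 12 hpf. The sa37 replicates moved in opposite directions here, by 2.34 and -6.67, so the mean of -2.17 (standard error 2.01, adjusted p 1 by limma and 0.501 under the block) describes neither library pair.

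A second case of discordant replicates was chr12:16497596-16497868 on the minus strand, another of the starts with the highest WT levels. It held 159 and 1299 RPM in sa37 at 16 hpf, against 394 and 635 RPM at 12 hpf, whereas WT held 748 and 1084 RPM at 16 hpf, against 263 and 487 RPM at 12 hpf. Within the replicate numbers the sa37 differences were -1.30 and 1.03. Without replicate 1 of sa37 at 16 hpf the sa37 difference was 1.38 in place of -0.14, and without replicate 2 of that group it was -1.65. Without replicate 1 of sa37 at 12 hpf it was -0.48, and without replicate 2 of that group 0.21. Each of these sets a lone library against libraries of both cluster lists, so the difference between the lists enters it. The sign therefore differs with the libraries kept. Replicate 1 of sa37 at 16 hpf, at 159 RPM, was the lowest of the 8 libraries, and the cause was not tested. The start chr5:827358-827725 on the minus strand was likewise split in sa37, with 2.83 and 30.8 RPM at 16 hpf, against 5.98 and 16.1 RPM at 12 hpf.

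Starts under 0.5 RPM in all 4 sa37 libraries numbered 3 of the 855, against 67 of the 19000 tested regions. The share is about the same, so such starts are not particular to the rising starts. The region chr12:45458938-45459017 on the minus strand was listed at 0 in all 4 sa37 libraries, against 6.12 and 21.5 RPM in WT at 16 hpf and 0 in both WT libraries at 12 hpf. The region chr3:45836340-45836524 on the minus strand had at most 0.083 RPM in sa37, against 8.38 and 20.7 RPM in WT at 16 hpf and 1.41 and 7.67 RPM at 12 hpf. The region chr5:835176-835185 on the minus strand also had at most 0.083 RPM in sa37, against 6.85 and 10.8 RPM in WT at 16 hpf and 0 and 1.03 RPM at 12 hpf. It lay 7451 bases from the split start on the same chromosome described above. A further start, chr4:43885743-43885842 on the minus strand, held 0 and 0.125 RPM in sa37 at 16 hpf, against 2.90 and 0.115 RPM at 12 hpf, while WT held 8.32 and 29.8 RPM at 16 hpf, against 1.33 and 8.31 RPM at 12 hpf. These regions were picked for their sa37 values, which are given with no test.

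Rising starts were not uniformly narrow or broad. Their merged regions were 3 to 565 bases wide with a median of 87, against a median of 92 over all tested regions. Regions of at most 10 bases made up 7.37% of rising starts and 4.89% of all tested regions. By the strongest cluster of the first list these shares were 13.1% and 7.95%, but by that of the second list 12.2% and 12.9%. Width went with level: among regions with a mean of 1 to 3 RPM over the 8 libraries the median was 63.5 bases for rising starts and 69 for all tested regions, and from 3 to 10 RPM it was 85 and 82 bases. From 10 to 30 RPM the medians were 122 and 105 bases, and from 30 RPM upward 132.5 and 126 bases. The small difference in merged width over all levels therefore has the opposite sign to the one within each class from 3 RPM upward. By the strongest cluster this did not hold in each class. From 3 to 10 RPM its medians were 56 against 58 bases in the first list and 71 against 65 in the second. From 10 to 30 RPM they were 86 against 78 and 93 against 81, and from 30 RPM upward 102 against 103 and 77 against 89. The strongest cluster of the first list had a median of 56 bases in rising starts and 68 over all tested regions, whereas in the second list it had 70 and 67, so the lists do not give the same sign.

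**Figure D4:**
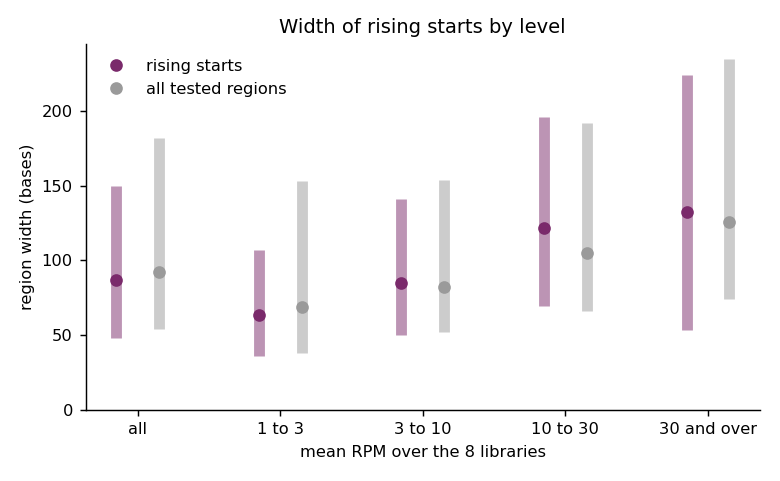
Width in bases of the merged regions of rising starts (purple) and of all tested regions (grey), over all levels and within classes of the mean RPM over the 8 libraries. Points are medians and bars run from the lower to the upper quartile. Medians increase with level in both sets, from 63.5 to 132.5 bases in rising starts, and the quartile ranges overlap widely in every class.

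By 12 hpf class, rising starts that were off in WT had a median width of 53 bases, those between 78.5 and those on 108 bases. Over all tested regions of the same classes the medians were 50, 68 and 97 bases, and the off class had the lowest mean level in both sets. The widest members were chr8:54171926-54172491 on the plus strand at 565 bases, chr5:25865876-25866390 on the minus strand at 514 and chr5:26804334-26804839 on the plus strand at 505. The widest held 28.4 and 26.7 RPM in sa37 at 16 hpf, against 5.81 and 8.70 RPM at 12 hpf, and 23.7 and 26.7 RPM in WT at 16 hpf, against 6.04 and 9.08 RPM at 12 hpf. Its sa37 groups did not overlap, and the choice made its WT pairs higher. The narrowest 3, at 3 bases, are described above.

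Most rising starts were single clusters. In the first list 853 of the 855 regions held 1 cluster, as did 18710 of the 19000 tested regions, and in the second list 748 did. The other 107 (12.5%) held several clusters in the second list, against 18.2% of tested regions. Of these 107, 85 had a cluster of at least 1 RPM at both stages. The strongest cluster at 16 hpf was also the strongest at 12 hpf in 84 of these 85 (98.8%) in sa37 and in 84 of 85 in WT. Over all tested regions the same share was 97.0% in sa37 and 97.3% in WT. The strongest cluster thus stayed in place in all but 1 of these regions in each genotype.

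Along the genome the rising starts were spread over all 25 chromosomes, with 7 on other sequences. They made up between 3.18% of the tested regions of chromosome 21 and 6.65% of those of chromosome 9, and 435 of the 855 were on the plus strand. The median distance from a rising start to the nearest other rising start was 409600 bases, against 533800 bases from other tested regions to their nearest rising start. Within 10 kb, 77 rising starts (9.01%) had another rising start, against 1.96% of the other tested regions. Within 100 kb the shares were 25.4% and 14.8%. Without neighbours under 1 kb away the 10 kb shares were 7.6% and 1.8%.

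Most of these neighbours within 10 kb were on the same strand. Another rising start on the same strand lay within 10 kb of 69 rising starts (8.07%), against 1.09% of the other tested regions, and within 1 kb of 14 (1.64%), against 0.149%. On the opposite strand the shares within 10 kb were 0.936% and 0.876%, and within 100 kb 7.49% and 7.2%. Starts of the same strand that lie close together can belong to a single gene, which cannot be told here. Of the nearest same-strand tested regions within 1 kb of a rising start, 36 in all, 14 were rising starts themselves. The median difference of these 36 was 0.959 in sa37 and 0.92 in WT, and 32 were above 0 in sa37 and 34 in WT. The 14 meet the WT bound by the rule, which raises the WT values of the 36. Over all tested regions the mean difference was above 0 in 62.5% in sa37 and 55.4% in WT. Neighbours of the other tested regions were not counted, so these values are a description only.

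**Figure D5:**
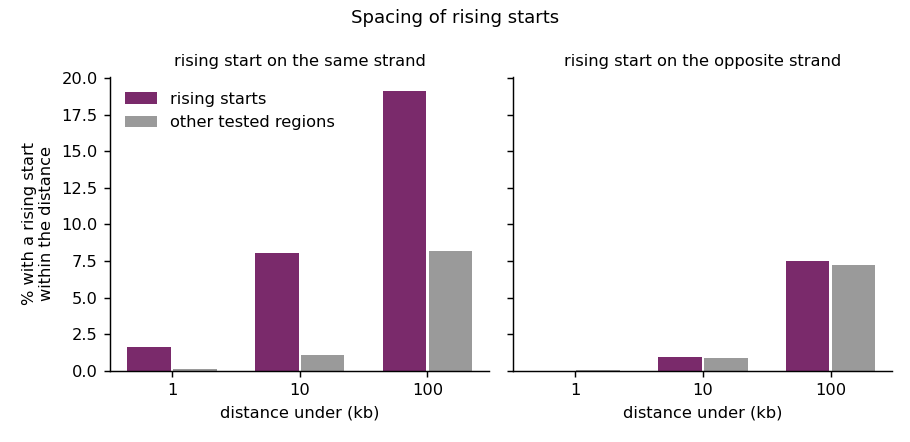
Percentage of rising starts (purple) and of the other tested regions (grey) with another rising start within 1, 10 or 100 kb, on the same strand (left) and on the opposite strand (right). Same-strand shares are 1.64, 8.07 and 19.1% for rising starts and 0.149, 1.09 and 8.21% for other regions, whereas opposite-strand shares at 10 and 100 kb lie close together.

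Transcription that leaves a promoter in both directions gives a pair of starts on opposite strands that point away from each other. A tested start of this kind within 1 kb upstream was found for 12 rising starts (1.4%), against 6.81% of the other tested regions. None of these 12 partners was itself a rising start. Of the 1235 partners of other tested regions, 12 (0.972%) were rising starts. Such a pair can be counted from either of its starts, so these shares are not independent and are not compared. The median difference of the 12 partners of rising starts was 0.177 in sa37 and 0.136 in WT. It was close to the 0.158 and 0.098 of the 1235 other partners, which include 12 rising starts. Of the 12 partners, 7 were above 0 in sa37 and 8 in WT, against 836 and 742 of the 1235.

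Where members lay within 100 kb of the next, they formed 82 runs of 2, 11 of 3 and 5 of 4 regions, and 638 stood alone. The shortest run of 4 spanned 38.6 kb on the plus strand, chr19:20164274-20202862, among 9 tested regions. Its members started at 20164274, 20183224, 20199855 and 20202728 and held 3.99 and 8.01, 6.82 and 13.0, 7.63 and 12.3, and 4.51 and 14.6 RPM in sa37 at 16 hpf. At 12 hpf in sa37 the same 4 held 0.51 and 0.344, 0 and 1.2, 3.42 and 5.84, and 1.45 and 5.21 RPM. The third missed the 2-fold bound in sa37, with differences of 0.97 and 0.96.

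The next run covered 67.7 kb of the plus strand of chromosome 23, between 35964753 and 36032447, with 4 members among 16 tested regions. All 4 were at least 2-fold higher in both sa37 pairs. The first, chr23:35964753-35964835, held 9.25 and 6.98 RPM in sa37 at 16 hpf, against 0 and 0.057 RPM at 12 hpf, and 7.10 and 13.3 RPM in WT at 16 hpf, against 0 and 0.3 RPM at 12 hpf. Those that start at 35975992, 35984705 and 36032141 had sa37 differences of 1.81 (SE 0.32), 1.85 (SE 0.41) and 1.46 (SE 0.41), and all 4 were called with the block, at limma adjusted p between 0.00203 and 0.00261. At 12 hpf none of the chromosome 23 members held more than 2.01 RPM in any library.

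The run chr4:16365286-16461887, on the minus strand, held 4 members and no other tested region. The last by coordinate is the 456-base start chr4:16461431-16461887 described above. The other members start at 16365286, 16417716 and 16460803 and were off in WT at 12 hpf, with 1.47 and 2.90, 1.35 and 3.03, and 3.49 and 1.77 RPM at 16 hpf. In sa37 they held 2.49 and 3.24, 3.24 and 3.20, and 3.53 and 1.45 RPM at 16 hpf. All 4 were called with the block in sa37, although 3 of them held at most 3.53 RPM in sa37 at 16 hpf and the 456-base start held at least 58.9 RPM.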

How the data were processed

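Whole-embryo RNA from 8 libraries was column-purified, reverse transcribed, cap-captured and sequenced, per the labels' protocols. The deposited values are RPM per tag cluster, as inferred from column sums and value steps. The submitters' processing notes name danRer10, BWA and HISAT2 without a role, and the clustering method is not given in the sources used here. Repeated rows (412 in the first list, 796 in the second) were counted once. Same-strand clusters of both lists that shared at least 1 base were merged, with the end read as exclusive, and RPM was summed. This gave 42130 regions, of which 23602 held clusters of both lists and 19000 had a mean of at least 1 RPM.

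The test was made in R 4.3.3 with limma 3.58.1. It took log2(RPM + 1) with 1 mean for each group, all 8 libraries and the contrast of sa37 at 16 against 12 hpf, two-sided, adjusted by Benjamini-Hochberg over the 19000 regions. A pseudocount of 1 understates the change of low regions. In the first list, a low 12 hpf value listed at 0 acts the other way. It can overstate a replicate 1 difference, in WT and in sa37. Alternatives included a block for the replicate number, edgeR 4.0.16 and DESeq2 1.42.0. The replicate numbers come from the titles and also mark the cluster list, and the difference between replicates correlated across regions with r of 0.68 to 0.83 between groups (6 pairs of groups). For edgeR and DESeq2, tags were recovered as whole multiples of a step per file, and 100.0% of the values above 0 and under 5 RPM came out whole, within 0.0055 RPM in the first list and 0.00055 RPM in the second. In the first list the smallest listed value is 6 to 9 steps, so a single tag is never seen and its step is less sure. The limma and edgeR fits, with and without the block, were tried on simulated data, and DESeq2 was not.

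The regions named were the 12 with the largest smaller WT difference, the 6 with the smallest sa37 p, the 6 lowest in sa37, the 6 highest in WT at each stage, 3 on each side of the bound, the 3 widest and narrowest, and the members of 3 runs (of 5 tied in size, the shortest). Others were chosen after their values were seen. The members, lists and tests were chosen with earlier results of these data known. Gene lists and promoter motifs were not counted, as no danRer10 annotation or sequence was used here.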

Additional observations from a re-analysis of the deposited data

Results flagged for a closer look

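The start chr17:22082950-22082958 on the plus strand was the only one of the 855 whose sa37 pairs were both lower at 16 hpf, while the choice made both WT pairs higher. It held 5.09 and 6.85 RPM in sa37 at 16 hpf, against 6.15 and 18.0 RPM at 12 hpf, and 5.63 and 9.59 RPM in WT at 16 hpf, against 1.25 and 2.79 RPM at 12 hpf. Its sa37 differences were -0.23 and -1.28, with a mean of -0.75 (standard error 0.56 by limma). Under the block the standard error was 0.25 and the limma adjusted p 0.0996, so it was not called lower in sa37. In WT the mean difference was 1.52. The difference between the genotypes was not tested, because WT values chose the region. Over all tested regions both sa37 pairs were lower in 24.4%.

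Regions covered by clusters of a single list entered no comparison above. Of the regions of the first list alone, 1530 averaged 1 RPM or more in its 4 libraries. Of these, 117 were at least 2-fold higher at 16 hpf in WT, and 39 of these were so in sa37 as well (33.3%, against 8.24% of the 1530). Of the 1251 such regions of the second list alone, 59 were at least 2-fold higher in WT and 36 of them in sa37 too (61.0%, against 5.44% of the 1251).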

How the results depend on the processing

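Changing the bound to 1.5-fold gave 1946 rising starts, 8.0% off in WT at 12 hpf and 1421 meeting that bound in both sa37 pairs. A 4-fold bound gave 154, 24.0% and 111, with a median width of 74.5 bases. A mean of at least 3 RPM moved the off share to 5.8% and the median width to 99 bases, and quantile normalization moved the off share to 22.2%. Choosing in a single WT pair gave from 1174 to 1588 regions, from 9.1 to 13.3% off, from 758 to 760 (64.6 and 47.9% of those chosen) at least 2-fold higher in both sa37 pairs and median widths from 83 to 84 bases. With a pseudocount of 0.1, no filter, merging within 100 bases or single best matching clusters, the number of rising starts and the sa37 count stayed within 1.5 times.

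The count of rising starts called in sa37, 18 without the block, out of 19 tested regions called higher, moved with the replicate block to 789 out of 2177. With the block it was also 700 out of 1369 (quantile normalization), 779 out of 2223 (mean of at least 10 tags, 21227 tested), 806 out of 2415 (sa37 groups alone) and 471 out of 851 (edgeR). Without the block it was 174 out of 184 with quantile normalization, 4 out of 6 with a pseudocount of 0.1, 360 out of 489 with DESeq2, 0 with edgeR, 0 with edgeR and DESeq2 size factors and 0 in limma for the sa37 groups alone. Where these counts were 0, 525, 535 and 551 rising starts were higher at an unadjusted p under 0.05. Over all 19000 tested regions 1598, 1641 and 987 were under it in the same fits, in either direction. Leaving out one library gave from 0 to 6 without the block and from 330 to 771 with it, where 472 (out of 641) and 330 (out of 374) came without a replicate 1 library of sa37, from 12 and 16 hpf. The lone library of an arm was then assumed to vary like the other groups. Without the block, a lone sa37 library was also compared across the 2 cluster lists. The median difference of all tested regions then ran from -0.15 to 0.46, against 0.122 with all libraries. Among the fits with a library left out, the lowest counts without the block were each without a sa37 library. The block with 10 tags, with the sa37 groups alone and with a library left out was chosen after seeing the data. The cause was not tested.

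Of 399 values of 19 named regions under these settings, 268 kept direction and side of the threshold, 73 lost the call, 46 gained it and 12 changed sign. Those with a changed sign were the 3 regions with split sa37 replicates. Their values with a sa37 library left out come from fits without the block, so the difference between the cluster lists enters them. The region on chromosome 22 from 25438834 ranged from -4.48 to 0.14 with a library left out and was above 0, at 0.028 and 0.14, without a replicate 2 library of sa37. The region on chromosome 12 from 16497596 turned to 0.16 with DESeq2, 0.15 with edgeR and 0.16 with edgeR and DESeq2 size factors, and ranged from -1.65 to 1.38 with a library left out, with 0.21 and 1.38 above 0. The region on chromosome 5 from 827358 turned to -0.06 with a pseudocount of 0.1, to -0.16 with quantile normalization with or without the block, and ranged from -1.51 to 1.54 with a library left out, with -1.51 and -0.63 below 0. In the first list, nothing between 0 and 0.5 RPM can be seen, so off is a bound set by that list.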

Other observations

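Around the split start on chromosome 5 from 827358, some tested starts on the minus strand differed widely between the replicate numbers and others did not. The region from 826349 to 826620 was alike in all libraries, with 16.2 and 11.3 RPM in sa37 at 16 hpf, against 13.2 and 15.1 RPM at 12 hpf, and 17.1 and 15.7 RPM in WT at 16 hpf, against 19.1 and 13.8 RPM at 12 hpf. The region from 823433 to 824011 held 50.3 and 6.77 RPM in sa37 at 16 hpf, against 22.3 and 5.04 RPM at 12 hpf, and 91.4 and 7.40 RPM in WT at 16 hpf, against 163 and 4.80 RPM at 12 hpf. The region from 837355 to 837637 was higher in replicate 2 in sa37, with 0.75 and 9.18 RPM at 16 hpf and 0 and 21.2 RPM at 12 hpf, and higher in replicate 1 in WT, with 31.4 and 2.52 RPM at 16 hpf and 62.5 and 1.67 RPM at 12 hpf.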
